A study of Mus musculus with 4 samples.

Results

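The genes described here code for enzymes and carriers at the start of hepatic glucose production and at the entry of pyruvate and alanine into it. They were chosen by name as 10 mouse genes, Pck1, Pck2, Fbp1, Pcx, Mpc1, Mpc2, Gpt, Gpt2, Got1 and Mdh1, and every row of the expression files whose Ensembl identifier carries one of these symbols in GENCODE M21 was taken. Rows were found for 7 of the 10 genes, of 19284 gene identifiers in all, and they amounted to 18 of 37363 rows. No row mapped to Fbp1, Pcx or Mdh1, which are not analysed here. The choice of genes was made with earlier results of these data known. RNA came from primary mouse hepatocytes (the liver's parenchymal cells) in 2 groups of 2 samples each, one treated with non-essential amino acids (NEAA), which animal cells can make themselves, and an untreated control. The study's title concerns proline, hepatic glucose production and the retention of mRNA by paraspeckles, and its stated question for these libraries was the effect of NEAA on long non-coding RNA. The sources used here give neither strain nor age, nor the dose, composition or duration of the treatment. No label says that the 2 samples of a group came from separate animals or cultures, so p-values cover only the variation among these 4 libraries, which could be technical. In bulk RNA, fewer cells of a type and less RNA per cell cannot be told apart.

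Glucose production from alanine begins when an alanine aminotransferase, Gpt in the cytosol or Gpt2 in mitochondria, turns alanine into pyruvate. The Mpc1 and Mpc2 proteins together form the carrier that brings pyruvate into mitochondria, where pyruvate carboxylase makes oxaloacetate from it. Malate and aspartate carry the oxaloacetate carbon out to the cytosol, with Got1 as the cytosolic aspartate aminotransferase. Phosphoenolpyruvate carboxykinase makes phosphoenolpyruvate from oxaloacetate, Pck1 in the cytosol after this export and Pck2 inside mitochondria. This is a committed step of glucose production, and in liver Pck1 is switched on by fasting hormones.

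Each file lists FPKM, which scale fragments by transcript length and library size, per row, and a row is called a model here. A model is paired with a gene but not with a transcript, and models of a gene are numbered in file order. Each of the 10 genes had as many models as GENCODE M21 has transcripts of it classed as retained intron, that is transcripts that keep intron sequence. There were 5 such transcripts for Gpt, 5 for Pck2, 2 each for Pck1, Mpc1 and Mpc2, 1 each for Gpt2 and Got1, and 0 for Fbp1, Pcx and Mdh1. Values below are therefore those of models, which may be retained-intron RNAs, and not of the coding mRNAs.

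Splice sites of the introns that these transcripts keep, in whole or in part, show what RNA the models may stand for. The sequences are from the GENCODE M21 transcripts (GRCm38), have 60 bases and lie inside the coding span of the gene. At a 5′ splice site 30 exon bases come before 30 intron bases with the first 2 intron bases in capitals, and at a 3′ splice site 30 intron bases come first with the last 2 in capitals. An ordinary spliced mRNA has no such exon-intron junction. Gpt2-203, the single retained-intron transcript of Gpt2, starts inside intron 6 and keeps its last 181 bases (window chr8:85516128-85516187, plus strand). Intron 9 of Gpt, of 106 bases, is kept whole in 4 of the 5 retained-intron transcripts (chr15:76698860-76698919, plus strand). Mpc1-204 keeps the end of intron 3 (chr17:8296505-8296564, plus strand). Pck1-204 keeps intron 2 whole (chr2:173153583-173153642, plus strand) and Pck1-202 intron 9 (chr2:173158059-173158118, plus strand). Intron 5 of Pck2 is kept whole in 2 of its retained-intron transcripts (chr14:55544553-55544612, plus strand). Got1-203 keeps intron 6, of 88 bases (chr19:43504658-43504717, minus strand).
Gpt2 intron 6, 3′ splice site: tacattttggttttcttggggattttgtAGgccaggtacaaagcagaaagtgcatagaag
Gpt intron 9, 5′ splice site: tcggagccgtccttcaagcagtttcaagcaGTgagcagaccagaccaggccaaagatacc
Mpc1 intron 3, 3′ splice site: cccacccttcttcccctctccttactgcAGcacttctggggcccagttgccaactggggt
Pck1 intron 2, 5′ splice site: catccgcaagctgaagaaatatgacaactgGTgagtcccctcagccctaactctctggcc
Pck1 intron 9, 5′ splice site: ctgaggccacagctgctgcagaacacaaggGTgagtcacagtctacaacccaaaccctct
Pck2 intron 5, 5′ splice site: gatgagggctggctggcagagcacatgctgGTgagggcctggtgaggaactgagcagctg
Got1 intron 6, 3′ splice site: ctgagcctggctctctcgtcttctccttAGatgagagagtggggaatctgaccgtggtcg

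Models of both alanine aminotransferase genes rose with NEAA when summed per gene, Gpt2 by 4.17-fold and Gpt by 2.62-fold in mean FPKM. Mpc1 and the low Pck1 had higher values in both NEAA samples and Pck2 lower values in both, without a call, while Mpc2 and Got1 had overlapping groups. The test was limma on log2(FPKM + 1), fitted over all models or all gene sums with a mean of at least 1 FPKM and called at a Benjamini-Hochberg adjusted p under 0.05. Log2 fold changes are differences on that scale, where the added 1 makes them smaller than the changes in mean FPKM. Per model, 1 of the 7 tested member models rose and 0 fell, where 1.95% of all 6064 tested models were called higher and 0.956% lower. At an unadjusted p under 0.05, 3 member models were higher and 0 lower by limma, where 640 of all 6064 were higher and 929 lower. Summed per gene, 2 of the 5 tested members rose and 0 fell, where 6% of all 4700 tested gene sums were called higher and 4.11% lower. At an unadjusted p under 0.05, 3 member gene sums were higher and 1 was lower by limma, where 679 of all 4700 were higher and 766 lower. The median log2 fold change was 0.93 over the 5 member gene sums, against -0.06 over all tested gene sums. It describes 5 of the 7 genes with a row, the other 2 being below the filter. Because earlier results of these data were known when the genes were chosen, these counts and this median only describe the members. They are no independent comparison with all features. Of the 7 tested models, Gpt model 5 and Mpc1 model 1 reached the filter only through the NEAA group, and Pck2 models 2 and 5 only through the control group. FPKM carry no counts, so the depth behind these values is unknown. The smallest p that an exact 2-sided permutation of the 4 samples allows is 0.333.

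**Figure D1:**
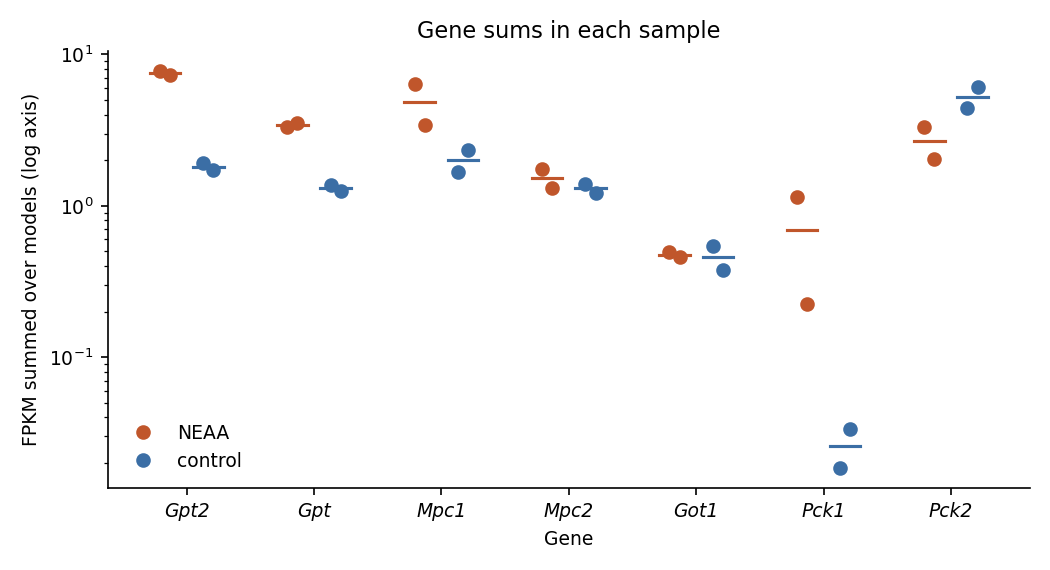
FPKM summed over the models of each gene (log axis) in the NEAA samples (orange, left) and the control samples (blue, right). Points are samples and lines are group means. The NEAA points lie above the control points for Gpt2, Gpt, Mpc1 and Pck1 and below them for Pck2, and they overlap for Mpc2 and Got1.

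Gpt2 (ENSMUSG00000031700, GRCm38 chromosome 8, 85492576 to 85527560, plus strand) had a single model, so its model and its gene sum are the same values. The model had 7.82 and 7.34 FPKM in the NEAA samples, against 1.91 and 1.73 FPKM in the control samples. Both NEAA samples were far above both controls, and replicates within a group lay close together. The log2 fold change was 1.61 (SE 0.13), with a limma adjusted p of 0.0299 among models and 0.0107 among gene sums. By p it ranked at place 40 of the 4700 gene sums, and by log2 fold change at place 66. The model-level call was lost when any of the 4 samples was left out, with limma adjusted p from 0.129 to 0.183, and without the level filter (0.0872). Among gene sums it was kept without NEAA 2 (limma adjusted p = 0.0478) and lost without NEAA 1 (0.0527), control 1 (0.0881) or control 2 (0.0857).

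The tested models most like Gpt2 over the 4 samples were ranked by the Euclidean distance between centred log2(FPKM + 1) values. The nearest, at 0.05 log2 units, was a locus outside the annotation. Next, at 0.06, came Glud1, which codes for the mitochondrial enzyme that releases ammonia from glutamate, the partner product of alanine transamination. The Glud1 model had 16.7 and 15.1 FPKM in NEAA samples, against 4.75 and 4.58 FPKM in control samples. The third, at 0.07, was Stra6l, with 6.77 and 6.63 FPKM in NEAA samples against 1.54 and 1.53 FPKM in control samples. With 4 samples in 2 groups, such likeness says little more than that the models differed between the groups by a like amount.

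Gpt (ENSMUSG00000022546, chromosome 15, 76695716 to 76699686, plus strand) had 5 models, which summed to 3.30 and 3.54 FPKM in the NEAA samples and to 1.36 and 1.25 FPKM in the control samples. The groups stood well apart, and replicates differed little. The sum rose by 0.94 in log2(FPKM + 1) (SE 0.12), with a limma adjusted p of 0.0234. That call was lost without any one of the 4 samples, with limma adjusted p from 0.078 to 0.129, and without the level filter (0.0519). Model 5 carried most of the sum, 70.6% and 70.7% in NEAA samples against 70.0% and 66.1% in control samples. It had 2.33 and 2.51 FPKM in NEAA samples, against 0.956 and 0.823 FPKM in control samples. Its log2 fold change of 0.86 (SE 0.12) did not pass (limma adjusted p = 0.0533). It passed under quantile normalization (0.0484) and after rescaling to the mean sum of the samples, chosen after seeing the data (0.0482). It did not pass after the same rescaling without Gm26917 and Gm42418 (0.0507). Model 5 reached the level filter only through the NEAA group.

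The lower Gpt models were not tested. Model 1 had 0.553 and 0.575 FPKM in NEAA samples, against 0.160 and 0.124 FPKM in control samples. Model 2 had 0.343 and 0.351 FPKM in NEAA samples, against 0.165 and 0.228 FPKM in control samples. Both were higher in each NEAA sample than in either control. Model 3 stayed near 0.1 FPKM with overlapping groups, at 0.0725 and 0.111 FPKM in NEAA samples and 0.0840 and 0.0707 FPKM in control samples, and model 4 was listed at 0 in all samples. Gpt2 exceeded Gpt in every sample, and the ratio of their gene sums was 2.37 and 2.07 in NEAA samples, against 1.40 and 1.39 in control samples.

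**Figure D2:**
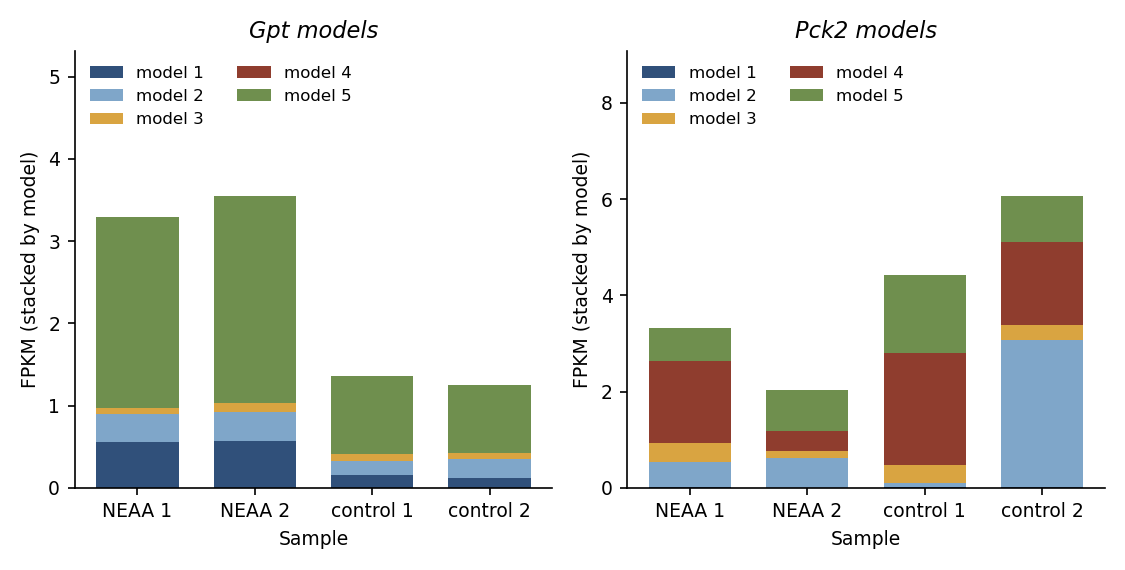
FPKM of each model of Gpt (left panel) and Pck2 (right panel), stacked by sample, with the NEAA samples left of the control samples. Model 5 makes up most of Gpt in all 4 samples, while the split of Pck2 between its models differs from sample to sample, with model 2 at 3.06 FPKM in control 2 and at 0.0794 FPKM in control 1.

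Mpc1 (ENSMUSG00000023861, chromosome 17, 8282904 to 8297661, plus strand) codes for a subunit of the mitochondrial pyruvate carrier. Its 2 models summed to 6.37 and 3.41 FPKM in the NEAA samples, against 1.68 and 2.35 FPKM in the control samples. Both NEAA values lay above both controls, but NEAA 1 was nearly double NEAA 2. The log2 fold change of the sum was 0.93 (SE 0.29) and did not pass (limma adjusted p = 0.118). It was 0.56 without NEAA 1 and 1.30 without NEAA 2, without a call in either case. Model 1 had 2.52 and 1.32 FPKM in NEAA samples, against 0.596 and 0.726 FPKM in control samples. Model 2 had 3.85 and 2.09 FPKM in NEAA samples, against 1.08 and 1.63 FPKM in control samples. Both models followed the same order over the samples and neither passed (limma adjusted p = 0.159 and 0.210). Model 2 made up 60.5% and 61.4% of the sum in NEAA samples and 64.4% and 69.1% in control samples. An RNA on the opposite strand, 4930506C21Rik, overlaps Mpc1, and its models reached at most 0.0985 FPKM.

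Mpc2 (ENSMUSG00000026568, chromosome 1, 165460637 to 165481214, plus strand), the partner subunit, had 2 models with sums of 1.75 and 1.31 FPKM in NEAA samples and 1.38 and 1.22 FPKM in control samples. The groups overlapped, and their log2 difference was 0.13 with an SE of 0.15 (limma adjusted p = 0.592). Neither model reached the level filter. Model 1 had 0.989 and 0.788 FPKM in NEAA samples, against 0.644 and 0.644 FPKM in control samples, and model 2 had 0.756 and 0.519 FPKM in NEAA samples, against 0.739 and 0.575 FPKM in control samples. The ratio of Mpc1 to Mpc2 gene sums was 3.65 and 2.61 in NEAA samples, against 1.21 and 1.93 in control samples. The ratio was thus higher in both NEAA samples, and its spread within each group was wide.

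Got1 (ENSMUSG00000025190, chromosome 19, 43499752 to 43524605, minus strand) had a single model below the level filter. It had 0.492 and 0.456 FPKM in NEAA samples, against 0.542 and 0.376 FPKM in control samples. The NEAA values lay between the control values.

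Pck1 (ENSMUSG00000027513, chromosome 2, 173153048 to 173159273, plus strand) had 2 models, both below the level filter and not tested. Model 1 had 1.06 and 0.182 FPKM in NEAA samples, against 0.0185 and 0.0333 FPKM in control samples. Model 2 had 0.0925 and 0.0431 FPKM in NEAA samples, against 0 and 9.9e-05 FPKM in control samples. Both models were higher in each NEAA sample than in either control, and the NEAA samples differed widely between themselves. At such levels the number of reads behind a value is unknown, so no fold change is given. Pck1 was the lowest of the 7 genes in control samples, and in NEAA samples its range took in that of Got1.

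Pck2 (ENSMUSG00000040618, chromosome 14, 55540266 to 55551242, plus strand), for the mitochondrial form of the enzyme, was lower in both NEAA samples. Its 5 models summed to 3.32 and 2.03 FPKM in the NEAA samples, against 4.41 and 6.06 FPKM in the control samples. The groups did not overlap, and the log2 fold change of -0.77 (SE 0.24) did not pass (limma adjusted p = 0.118). It was -0.52 without NEAA 2 and -1.03 without NEAA 1. Model 4 had 1.72 and 0.432 FPKM in NEAA samples, against 2.32 and 1.72 FPKM in control samples, and model 5 had 0.684 and 0.834 FPKM in NEAA samples, against 1.62 and 0.939 FPKM in control samples. Both were lower in NEAA by a narrow gap and did not pass (limma adjusted p = 0.362 and 0.337).

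Model 2 of Pck2 had 0.517 and 0.620 FPKM in NEAA samples, against 0.0794 and 3.06 FPKM in control samples. The control samples lay on either side of the NEAA samples, and the model held 1.8% of the gene sum in control 1 and 50.5% in control 2. Its log2 difference of -0.42 had an SE of 0.69 (limma adjusted p = 0.730) and turned to 0.54 without control 2. Model 3 had 0.391 and 0.136 FPKM in NEAA samples, against 0.374 and 0.330 FPKM in control samples, and model 1 stayed below 0.0215 FPKM in all samples. The antisense gene Gm10876, which overlaps Pck2, was listed at 0 in all samples. The Pck2 sum exceeded the Pck1 sum in every sample. No ratio of the 2 is given, since the Pck1 sum was below the level filter, at 0.0185 and 0.0334 FPKM in control samples.

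**Figure D3:**
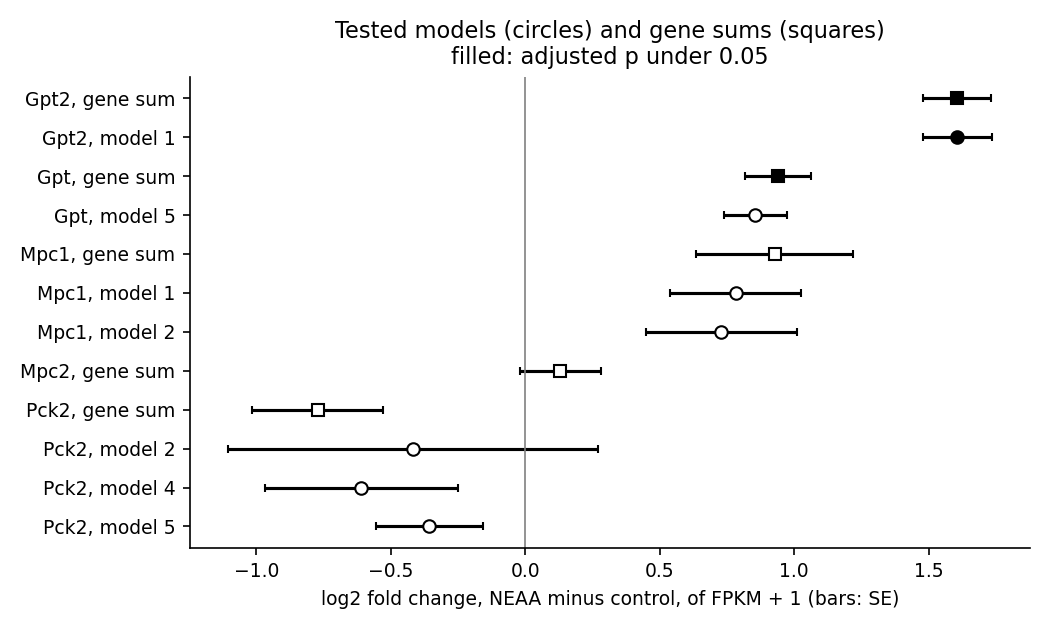
Log2 fold change of FPKM + 1, NEAA minus control, for the 7 tested member models (circles) and 5 tested member gene sums (squares), with bars for the SE. Symbols filled in black passed an adjusted p under 0.05. The filled ones are the Gpt2 model, the Gpt2 sum and the Gpt sum, all above 0, and each Pck2 symbol lies below 0.

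Over all 18 member models, the groups did not overlap with NEAA higher in 9, did not overlap with NEAA lower in 2, and overlapped in 7, of which 1 was at 0 in all samples. Of all 25076 models above 0 in any sample, 21.8% had groups that did not overlap with NEAA higher and 23.6% with NEAA lower. The 9 belonged to Gpt, Gpt2, Mpc1, Mpc2 and Pck1, and the 2 to Pck2. Models of a gene share its reads and are not separate measurements of it. Of the 7 gene sums, 4 were higher and 1 was lower without overlap, where 24.3% and 24.5% of all 12256 gene sums above 0 were.

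The order of the genes by summed FPKM, which is per length, differed between the groups. In NEAA samples it was Gpt2 (mean 7.58 FPKM), Mpc1 (4.89), Gpt (3.42), Pck2 (2.68), Mpc2 (1.53), Pck1 (0.688) and Got1 (0.474). The ranges of Mpc1 and Gpt, of Gpt and Pck2, and of Pck1 and Got1 overlapped there. In control samples it was Pck2 (5.24 FPKM), Mpc1 (2.01), Gpt2 (1.82), Gpt (1.31), Mpc2 (1.30), Got1 (0.459) and Pck1 (0.0260). The ranges of Mpc1 and Gpt2 and of Gpt and Mpc2 overlapped there. Gpt2 thus had the highest sum of the 7 in both NEAA samples and Pck2 the highest in both controls. These are sums of models, which may be retained-intron RNAs, and do not rank the coding mRNAs.

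**Figure D4:**
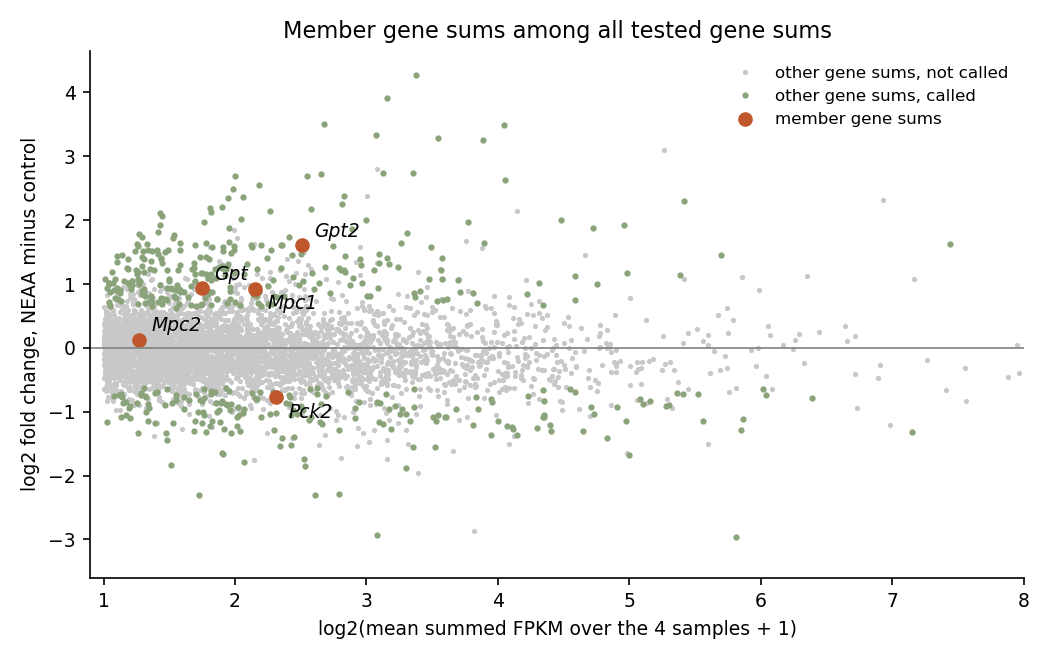
Log2 fold change, NEAA minus control, against the log2 mean summed FPKM + 1 over the 4 samples for the 4700 tested gene sums, with 10 gene sums beyond the right edge of the axis left out. Member gene sums are orange, other called ones green and the rest grey. Gpt2 and Gpt lie in the upper band of called gene sums, Mpc1 beside it, Mpc2 near 0 and Pck2 at the lower border.

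The other genes of the pathway came from 5 lists. The counts of called gene sums in each list stand beside 6% of all 4700 tested gene sums called higher and 4.11% called lower. Among further steps of glucose production, 10 of 16 genes had a tested gene sum, of which 1 rose and 1 fell, with a median log2 fold change of 0.19. Pgk1, phosphoglycerate kinase, had 3.46 and 3.15 FPKM in NEAA samples, against 1.35 and 1.67 FPKM in control samples (limma adjusted p = 0.0400). Gapdh, the next enzyme of the same segment, had 11.7 and 10.4 FPKM in NEAA samples, against 136 and 63.0 FPKM in control samples (limma adjusted p = 0.0224). The Gapdh value rests on 1 model, at 0 and 2.004 FPKM in NEAA samples against 129 and 58.6 FPKM in control samples. Its other 3 models summed to 11.7 and 8.39 FPKM in NEAA samples, against 6.32 and 4.37 FPKM in control samples, which is the opposite direction. Pgk1 and Gapdh both have pseudogene copies that could share reads, which was not tested. Slc2a2, the glucose carrier of hepatocytes, had 2.81 and 1.68 FPKM in NEAA samples, against 0.880 and 0.284 FPKM in control samples, without passing (limma adjusted p = 0.0836). Slc2a2 reached the level filter only through the NEAA group. Glucose-6-phosphatase, G6pc, had no row and was not analysed here.

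Among entry of amino acids and mitochondrial carriers, 8 of 24 genes had a tested gene sum, of which 1 rose and 1 fell, with a median of 0.18. The one that rose was Glud1 (limma adjusted p = 0.0107). The one that fell was Slc38a2, an importer of alanine and other neutral amino acids, with 4.35 and 4.65 FPKM in NEAA samples, against 8.83 and 8.89 FPKM in control samples (limma adjusted p = 0.0298). Slc38a3, a glutamine carrier of the same family, had 4.43 and 4.02 FPKM in NEAA samples, against 2.25 and 1.31 FPKM in control samples, without passing (limma adjusted p = 0.0600). The 2 carriers thus lay on opposite sides of control.

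Among genes at the branch points of pyruvate, 0 of 7 tested gene sums passed in either direction, with a median of 0.15. Ldha, lactate dehydrogenase, had 13.9 and 16.6 FPKM in NEAA samples, against 5.44 and 8.08 FPKM in control samples, and was near the threshold (limma adjusted p = 0.0508). Dld and Dlat, subunits of the pyruvate dehydrogenase complex, had lower means in NEAA, at 1.29 against 2.62 FPKM in control and at 1.99 against 2.61 FPKM in control (limma adjusted p = 0.187 and 0.216). In the citric acid cycle, 1 of 13 tested gene sums rose and 0 fell, where 6% of all 4700 were called higher and 4.11% lower. The median was 0.08. The gene sum that rose was Idh2, mitochondrial isocitrate dehydrogenase (limma adjusted p = 0.0251). It had 2.98 and 2.94 FPKM in NEAA samples, against 1.17 and 1.14 FPKM in control samples. Sucla2, a subunit of succinate-CoA ligase, had 1.04 and 1.37 FPKM in NEAA samples, against 0.941 and 0.850 FPKM in control samples (limma adjusted p = 0.369). Sucla2 reached the level filter only through the NEAA group. Idh3a, a subunit of the NAD-dependent isocitrate dehydrogenase, had overlapping groups, at 1.14 and 2.83 FPKM in NEAA samples and 5.01 and 2.19 FPKM in control samples (limma adjusted p = 0.382).

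Among regulators of glucose production, 0 of 14 tested gene sums passed in either direction. In log2 fold change 11 of the 14 lay below 0, as did 2590 of all 4700 tested gene sums. The median of the 14 was -0.15, against -0.06 over all tested gene sums. Mlxipl, the carbohydrate response factor ChREBP, had 2.80 and 3.43 FPKM in NEAA samples, against 1.44 and 1.65 FPKM in control samples (limma adjusted p = 0.0553). Crtc1, a coactivator of CREB, had 1.18 and 1.18 FPKM in NEAA samples, against 1.93 and 2.03 FPKM in control samples (limma adjusted p = 0.0861). Sik1, a kinase that restrains CREB coactivators, had 1.79 and 2.73 FPKM in NEAA samples, against 1.01 and 0.287 FPKM in control samples (limma adjusted p = 0.0948). Sik1 reached the level filter only through the NEAA group, with a control mean of 0.65 FPKM. Mlxipl and Sik1 were higher and Crtc1 lower in both NEAA samples.

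Some hepatocyte markers were higher in NEAA beside Gpt and Gpt2. Rows were found for 6 of 14 markers, and they summed to 69.1 and 66.9 FPKM in NEAA samples, against 26.4 and 33.4 FPKM in control samples. Trf alone made up 57.1 and 55.8 FPKM of this in NEAA samples and 22.5 and 28.1 FPKM in control samples, and the other 5 summed to 12.03 and 11.0 FPKM in NEAA samples, against 3.89 and 5.29 FPKM in control samples. Of 4 tested gene sums 3 rose, Apoe, Trf and Ahsg, which code for proteins that hepatocytes secrete (limma adjusted p from 0.0162 to 0.0348). Over all 4700 tested gene sums, 6% were called higher. Of the 6 markers with a row, 4 were higher in NEAA without overlap and 2 had overlapping groups. Over all 12256 gene sums above 0, 24.3% were higher without overlap. Apoe reached the level filter only through the NEAA group. Their part in the results on the member genes was not tested. Of other cell types, endothelial markers (5 of 6 with a row, Clec4g at 0) summed to 1.46 and 1.16 FPKM in NEAA samples and 1.32 and 0.673 FPKM in control samples. Stellate and fibroblast markers (4 of 7) summed to 1.40 and 1.13 FPKM in NEAA samples and 1.20 and 0.809 FPKM in control samples. Macrophage (1 of 7), cholangiocyte (1 of 5) and red blood cell markers (4 of 5, with Hba-a2 and Hbb-bs at 0) each summed to at most 0.0467 FPKM in any sample. Alb, Apoa1 and Ttr, defining hepatocyte markers, had no row, so the label could be checked only through the other markers.

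FPKM summed over all rows came to between 60942.0 and 65719 in NEAA samples and between 73377 and 73600.1 in control samples. Gm26917 and Gm42418 together held 49.4% and 46.1% of these sums in NEAA samples, against 52.9% and 50.4% in control samples. Rescaling each sample to the mean of the 4 sums, an alternative chosen after seeing the data, turned the median log2 fold change of all tested models to 0.05, against -0.09 as deposited. Limma then called 151 models higher and 40 lower, against 118 higher and 58 lower as deposited, and 419 gene sums higher and 96 lower, against 282 higher and 193 lower as deposited. The Gpt2 sum had a log2 fold change of 1.77 on that scale and the Gpt sum 1.09. With Gm26917 and Gm42418 left out of the sums, rescaling to their mean gave a median of -0.03 over all tested models. The direction of each tested member gene sum was the same under every rescaling tried and under quantile normalization. Of the tested member models, Pck2 model 2 turned under both rescalings to 1000000, which also make the added 1 smaller relative to the values, and not under those to the mean sum.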

How the data were processed

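Libraries were prepared from total RNA with a NEBNext Ultra kit, per the labels' protocols. The authors deposited FPKM values, 1 file for each sample, and the genome builds GRCm38 and mm10 are named per the submitters' processing notes. The sources used here give no aligner, quantifier, annotation release, strand setting or filter. Where genes overlap on opposite strands, their reads therefore cannot be told apart.

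Rows stood in the same order in all 4 files. Symbols, transcripts and coordinates (1-based) came from GENCODE M21. Features with a mean of at least 1 FPKM were fitted on log2(FPKM + 1) with group as the term, using limma 3.58.1 (R 4.3.3, mean trend, 2-sided, Benjamini-Hochberg), once per model and once with FPKM summed per gene. The scale understates changes of low features. The script was tested on simulated data. Members and lists were chosen with earlier results of these data known. Named from each list were called features and the 3 of smallest p; gene sums are printed. The alternatives were other pseudocounts, filters, scalings and variance settings, a replicate block, and leaving out each sample. Rescaling to the mean sum was added after seeing the data. FPKM carry no depth, so no counting interval was given.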

Additional observations from a re-analysis of the deposited data

How the results depend on the processing

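Of 180 repeats of the member fold changes under another setting, 160 kept direction and side of the threshold, 15 lost a call, 2 gained one and 3 changed sign. The sign changes were all of Pck2 model 2, at 0.080 and 0.12 under the rescalings to 1000000 with and without Gm26917 and Gm42418, and at 0.54 without control 2, where leaving out single samples gave -1.37 to 0.54. Without the level filter, limma called 0 models in either direction (2091 higher and 1909 lower at an unadjusted p under 0.05), 181 gene sums higher and 63 lower. Members then had 0 models and 1 gene sum higher, with more features tested. At a mean of 5 FPKM, 46 models were called higher and 54 lower, and 73 gene sums higher and 80 lower, with 0 members tested. Quantile normalization, and rescaling to the mean sum (chosen after seeing the data), each called 2 member models higher. Rescaling to 1000000 gave 90 models higher and 20 lower and 390 gene sums higher and 86 lower. Without Gm26917 and Gm42418 it gave 86 and 31 models and 303 and 127 gene sums. Rescaling to the mean sum gave 419 gene sums higher and 96 lower. The cause was not tested. Same-numbered samples did not deviate together (r = -0.0019 over tested models), and the labels do not pair them. With a replicate block, limma called 0 models (572 higher and 751 lower at an unadjusted p under 0.05), 139 gene sums higher and 46 lower, with 0 member models and 1 member gene sum, Gpt2, higher. The calls of the Gpt2 model and the Gpt sum were lost there (limma adjusted p = 0.135 and 0.0607). Without single samples, limma called 0 models in each direction (508 to 527 higher and 568 to 721 lower at an unadjusted p under 0.05), 0 to 64 gene sums higher and 0 to 27 lower. Members then had 0 models and 0 to 1 gene sums higher.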
